A study of Mus musculus with 36 samples.

Results

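The adult globin genes Hba-a1, Hba-a2, Hbb-bs and Hbb-bt and the erythroid gene Alas2 were followed through 6 kinds of mouse RNA-seq library as a measure of how much red-cell RNA each sample held. They were picked by symbol, mapped to their Ensembl identifiers, and make up 5 of the 55991 genes listed in any of the 6 count tables. All 5 were listed in all 6 tables.

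The study asked how a short high-fat diet (HFD) of the father acts through sperm on the next generation. The samples analysed here are labelled C57BL/6 wildtype. Males were put at 6 weeks of age on a diet with 60% of its calories as fat, or on a low-fat diet (LFD) with 10%, for 2 weeks. Cauda spermatozoa (mature sperm from the tail of the epididymis, recovered by swim-up) were sequenced in 3 HFD and 3 LFD libraries. By the paper, the sperm pellet was also kept in a lysis buffer with SDS and Triton. Only samples in which the microscope showed no somatic cells were used. Morulae were made by in vitro fertilisation of oocytes from unexposed females and cultured for 72 h, with 3 libraries from HFD fathers and 3 from LFD fathers. Round spermatids, the haploid cells that become sperm, were enriched on a density gradient and gave 6 libraries, 3 from males on each diet. Liver, epididymal white adipose tissue (eWAT) and gastrocnemius muscle came from male offspring on chow and gave 6 libraries each. All offspring were sons of HFD fathers, sorted by the study into glucose-tolerant (HFDt) and glucose-intolerant (HFDi). The count columns of the 3 tissues and of round spermatids carry a number only, so the 6 libraries of each were kept together. Diets were compared in sperm and morulae.

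Haemoglobin is a tetramer of alpha-like and beta-like globin chains, each holding a haem group. Adult mice make the alpha chains from Hba-a1 and Hba-a2 and the beta chains from Hbb-bs and Hbb-bt, almost wholly in erythroid cells. Alas2 encodes the erythroid form of 5-aminolevulinate synthase, which starts haem synthesis in mitochondria, and its ubiquitous relative is Alas1. Mature mouse red cells have no nucleus, but the youngest of them, the reticulocytes, still carry globin mRNA in large amounts, so that unperfused organs hold it with their blood.

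In GRCm38, Hba-a1 (ENSMUSG00000069919) lies at chr11:32283511-32284465 on the plus strand and Hba-a2 (ENSMUSG00000069917) at chr11:32296489-32297298, also on the plus strand. Hbb-bs (ENSMUSG00000052305) lies at chr7:103826534-103828096 and Hbb-bt (ENSMUSG00000073940) at chr7:103812524-103813996, both on the minus strand. Alas2 (ENSMUSG00000025270) lies at chrX:150547375-150570638 on the plus strand, inside the span of Apex2, an endonuclease gene on the opposite strand. Of the 2403 exon bases of Alas2, 311 (12.9%) overlap exons of Apex2, and whether the counting used strand is not given in the sources used here.

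The proximal promoters of the 5 genes are shown because these genes are known to be switched on together in red-cell precursors. The 110 bases before each RefSeq start (GRCm38.p6) are given on the sense strand. Capitals mark the CACCC box (bound by Klf1 and its relatives), the box CCAAT, the Gata1 motif AGATAA and the box TATAA, each searched on both strands. On the other strand the CACCC box reads GGGTG, the second motif reads ATTGG, the Gata1 motif reads TTATCT and the last reads TTATA.
Hba-a1, chr11:32283562-32283671, plus strand: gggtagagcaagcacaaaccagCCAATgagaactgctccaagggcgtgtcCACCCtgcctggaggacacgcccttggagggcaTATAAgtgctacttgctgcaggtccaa
Hba-a2, chr11:32296382-32296491, plus strand: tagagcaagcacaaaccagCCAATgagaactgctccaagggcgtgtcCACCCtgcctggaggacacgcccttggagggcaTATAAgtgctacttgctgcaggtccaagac
Hbb-bs, chr7:103827929-103828038, minus strand: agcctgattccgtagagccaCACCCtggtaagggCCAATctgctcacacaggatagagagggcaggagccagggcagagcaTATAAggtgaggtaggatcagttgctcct
Hbb-bt, chr7:103813924-103814033, minus strand: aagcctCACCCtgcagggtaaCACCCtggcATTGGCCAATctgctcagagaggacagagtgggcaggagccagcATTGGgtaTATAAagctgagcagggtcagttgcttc
Alas2, chrX:150547307-150547416, plus strand: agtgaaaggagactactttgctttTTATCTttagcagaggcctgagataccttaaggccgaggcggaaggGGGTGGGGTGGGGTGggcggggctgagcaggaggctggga

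The promoters of Hba-a1 and Hba-a2 were identical over 107 of 107 bases once shifted by 3 bases, whereas those of Hbb-bs and Hbb-bt matched at 80 of 109 bases (73.4%) at a shift of 1 base. CACCC stood in all 5 windows, against 29.6% of 32851 mouse promoters in the same window. The CCAAT box and likewise the TATAA box stood in the 4 globin windows, against 20.2% and 10.9% of all promoters. These 3 boxes together were found in 182 promoters (0.554%), the 4 globin promoters among them. AGATAA occurred in the Alas2 window, against 3.99% of all promoters. In Hbb-bt one copy of ATTGG directly precedes a copy of CCAAT, and none of the marked letters of Alas2 belongs to 2 kinds of motif. These matches describe the letters of the windows and do not show that a factor binds them.

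Within each pair the coding sequences are nearly the same, which limits how far reads can be assigned to 1 copy. Hba-a1 and Hba-a2 differed at 1 of 426 coding bases (C381T, counted from the A of the start codon, Hba-a1 base first), and Hbb-bs and Hbb-bt differed at 1 of 441 (C417T, Hbb-bs base first). Neither difference changes an amino acid. The 41 coding bases around the differing base, which is in capitals, are shown because they hold the one coding difference of each pair (GENCODE M21 transcripts on GRCm38).
Hba-a1, coding bases 361 to 401: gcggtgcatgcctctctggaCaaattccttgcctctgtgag
Hba-a2, coding bases 361 to 401: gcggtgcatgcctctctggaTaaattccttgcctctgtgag
Hbb-bs, coding bases 397 to 437: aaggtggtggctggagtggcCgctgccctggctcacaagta
Hbb-bt, coding bases 397 to 437: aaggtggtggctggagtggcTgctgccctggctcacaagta

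Reads of the 3 tissues were 50 bases long and came from the 3′ end of transcripts. In the last 300 bases, 80.1% of the 50-base windows of Hba-a1 and 73.7% of those of Hba-a2 also occur in the other copy, compared with 36.7% for Hbb-bs and 36.3% for Hbb-bt. Reads of sperm, round spermatids and morulae were 75 bases long and spanned whole transcripts. The paper gives them as paired in round spermatids and morulae and as single in sperm. Over whole transcripts, 62.2% of the 75-base windows of Hba-a1, 81.0% of Hba-a2, 64.3% of Hbb-bs and 56.6% of Hbb-bt were shared. No window of Alas2 matched a transcript of another gene on the same strand. The other strand, where exons of Apex2 overlap Alas2, was not searched. How the authors counted reads that match more than 1 gene is not given in the sources used here, so the split between 2 copies is uncertain. Their sum does not depend on that split, but it too would lose the shared reads if these were not counted. In the tissues such a loss would be larger for the alpha than for the beta genes.

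The libraries held 1338149 to 4055537 counts in eWAT, 2036237 to 2552454 in liver and 369772 to 2749920 in gastrocnemius. Round spermatids had 20138842 to 31056066 counts, sperm 2560219 to 4062321 and morulae 11471251 to 12153141. Most marker genes followed the labels, such as Alb and Ttr in liver, Adipoq and Fabp4 in eWAT, Myh4, Ckm and Acta1 in gastrocnemius, Prm2 and Odf1 in both germ cell types, and Nanog and Tdgf1 in morulae. Summed liver markers reached 83.7 to 800 CPM (counts scaled to a common library total) in the eWAT libraries, and summed muscle markers 40.7 to 1271 CPM. Krt8, on the morula list, did not follow the labels. Its mean was 23.9 CPM in LFD sperm and 3.98 CPM in HFD sperm, against 16.7 and 13.8 CPM in HFD and LFD morulae. Summed morula markers reached 55.9 CPM in the LFD sperm library l4 and 3.34 to 5.42 CPM in HFD sperm. The tissues were extracted with TRIzol and made into 3′ libraries, the other 3 sample types, by their labels, with RNeasy columns and Nextera libraries, so that sample type and kit cannot be told apart across that divide. Whether libraries of a group came from separate animals is not stated for each column, and p-values measure the spread between these libraries. Counting intervals cover counting error only, since reads without molecular identifiers are not independent molecules.

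Globin RNA was most abundant in eWAT. The share of the 4 globin genes there was 0.928% ± 0.351 (SD, n = 6) of all counts, from 0.412% through a median of 0.982% to 1.40%. In gastrocnemius it was 0.0492% ± 0.00668 (n = 6; 0.0399%, median 0.0497%, 0.0592%) and in liver 0.0386% ± 0.00832 (n = 6; 0.0293%, median 0.0368%, 0.0490%). The lowest eWAT library thus lay above the highest of every other sample type, and the eWAT mean was 18.9 times that of gastrocnemius. The ranges of liver and gastrocnemius overlapped. In bulk samples, fewer cells of a type and less RNA per cell cannot be told apart, so these shares do not count red cells.

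Swim-up sperm carried a smaller but measurable share. The HFD libraries h1, h3 and h4 had 0.0243%, 0.0173% and 0.0122% of counts in globin genes, and the LFD libraries l1, l2 and l4 had 0.0195%, 0.0103% and 0.00246%. The diets overlapped, and l4, with 63 globin counts (0.00189% to 0.00315%, exact 95% binomial interval), stood below the other 5. Round spermatids and morulae were close to empty of globin RNA. In 150257984 counts of the 6 spermatid libraries there were 110 from globin genes, and in 71005346 counts of the 6 morula libraries there were 8. The eWAT mean was 64.7 times the sperm mean. Counts from genes of the mitochondrial genome make up 43.5% to 84.3% of each sperm library but 15.1% to 18.2% of each eWAT library. With those counts left out of the totals, the mean globin share was 1.12% in eWAT, 0.0795% in gastrocnemius, 0.0631% in sperm and 0.0511% in liver, which moved sperm from below liver to above it.

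**Figure D1:**
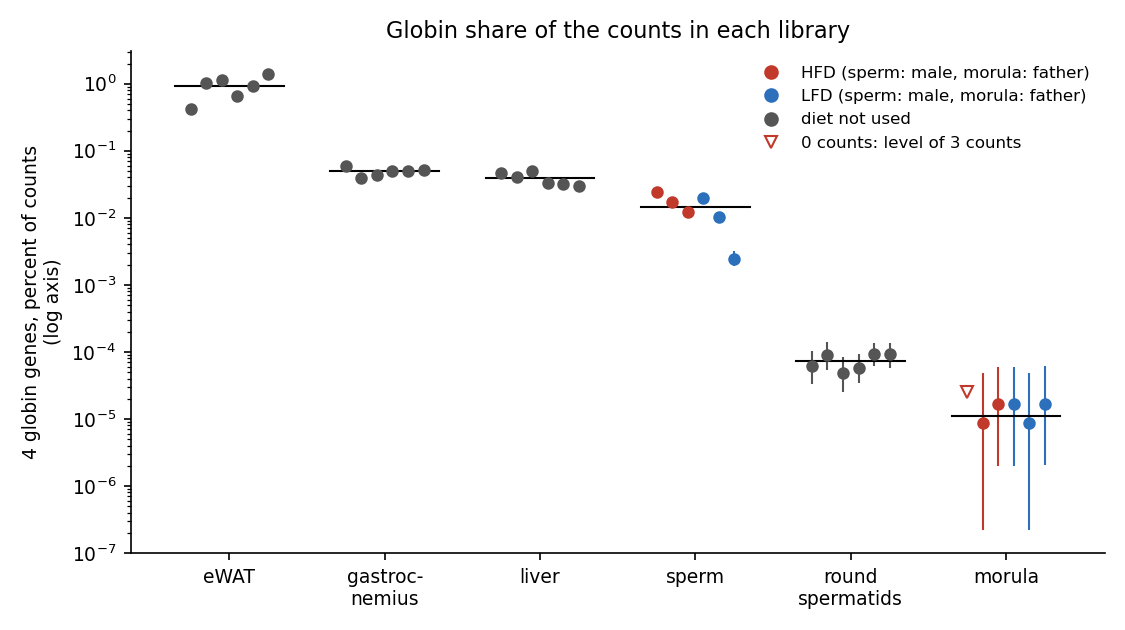
Share of all counts that fell on Hba-a1, Hba-a2, Hbb-bs and Hbb-bt, in percent on a log axis, for each of the 36 libraries in 6 sample types, with 1 point per library, its exact 95% interval, a bar at the mean of each sample type and a triangle at the level of 3 counts for the library with 0. The eWAT libraries sit between 0.412% and 1.40%, above every other library, and sperm library l4 (0.00246%) sits below the other 5 sperm libraries.

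The beta gene Hbb-bs, the first of the adult beta genes of the C57BL/6 haplotype, gave most of the globin counts in the 3 tissues and sperm. In eWAT it reached 3329 CPM in the lowest library, 7491 at the median and 10977 in the highest, with a mean of 7247 ± 2717 CPM (SD, n = 6). In gastrocnemius it ran from 312 through 408 to 473 CPM (396 ± 61.7) and in liver from 229 through 283 to 382 CPM (298 ± 61.0). In sperm it was 158, 97.0 and 85.9 CPM in h1, h3 and h4 and 118, 66.5 and 17.6 CPM in l1, l2 and l4. Round spermatids had 54 Hbb-bs counts in all (0.359 CPM, exact 95% interval 0.270 to 0.469), and morulae had none, where 3 counts over the 6 libraries would be 0.0423 CPM.

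Its partner Hbb-bt, the second adult beta gene, followed the same order at a lower level. It ranged from 502 through 1279 to 1895 CPM in eWAT, from 52.0 through 59.7 to 67.7 CPM in gastrocnemius and from 36.4 through 49.5 to 87.6 CPM in liver. Sperm had 58.1, 57.4 and 20.1 CPM in h1, h3 and h4, and 45.7, 23.9 and 5.08 CPM in l1, l2 and l4. The liver range enclosed the gastrocnemius range and overlapped that of sperm. Round spermatids had 9 Hbb-bt counts and morulae none.

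In counts, the alpha genes lay below the beta genes in every tissue, and the part of reads shared between copies in this was not tested. Hba-a1 ranged from 127 through 375 to 462 CPM in eWAT, from 3.21 through 16.96 to 21.6 CPM in gastrocnemius and from 5.39 through 12.04 to 28.2 CPM in liver. Hba-a2 ranged from 166 through 520 to 698 CPM in eWAT, from 1.07 through 20.6 to 32.5 CPM in gastrocnemius and from 13.2 through 16.8 to 25.02 CPM in liver. For both genes the eWAT libraries stood apart, while liver and gastrocnemius overlapped. In sperm, Hba-a1 was 14.03, 10.3 and 7.61 CPM in h1, h3 and h4 and 15.8, 9.18 and 1.17 CPM in l1, l2 and l4, and Hba-a2 was 13.02, 8.62 and 8.43 CPM against 15.4, 2.95 and 0.781 CPM. Of the 110 globin counts in round spermatids, 39 fell on Hba-a1 and 8 on Hba-a2. All 8 globin counts of the morulae fell on the alpha genes, 4 on each.

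Alas2, the haem synthesis enzyme of red-cell precursors, did not follow the globin order. It ranged from 21.9 through 40.9 to 53.3 CPM in eWAT, from 16.7 through 19.8 to 27.3 CPM in liver and from 1.69 through 3.66 to 5.41 CPM in gastrocnemius. Liver thus stood next to eWAT, and gastrocnemius, with 35 Alas2 counts in all, stood on average below sperm (7.47 ± 3.17 CPM, n = 6). Round spermatids had 1.31, 2.07 and 2.78 CPM at the lowest, median and highest library, or 314 counts, and morulae had 40 counts. The antisense neighbour Apex2 had 469 counts in round spermatids and 492 in morulae, so that reads from the 2 genes could be mixed there where their exons overlap. How many reads came from the shared bases was not tested.

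**Figure D2:**
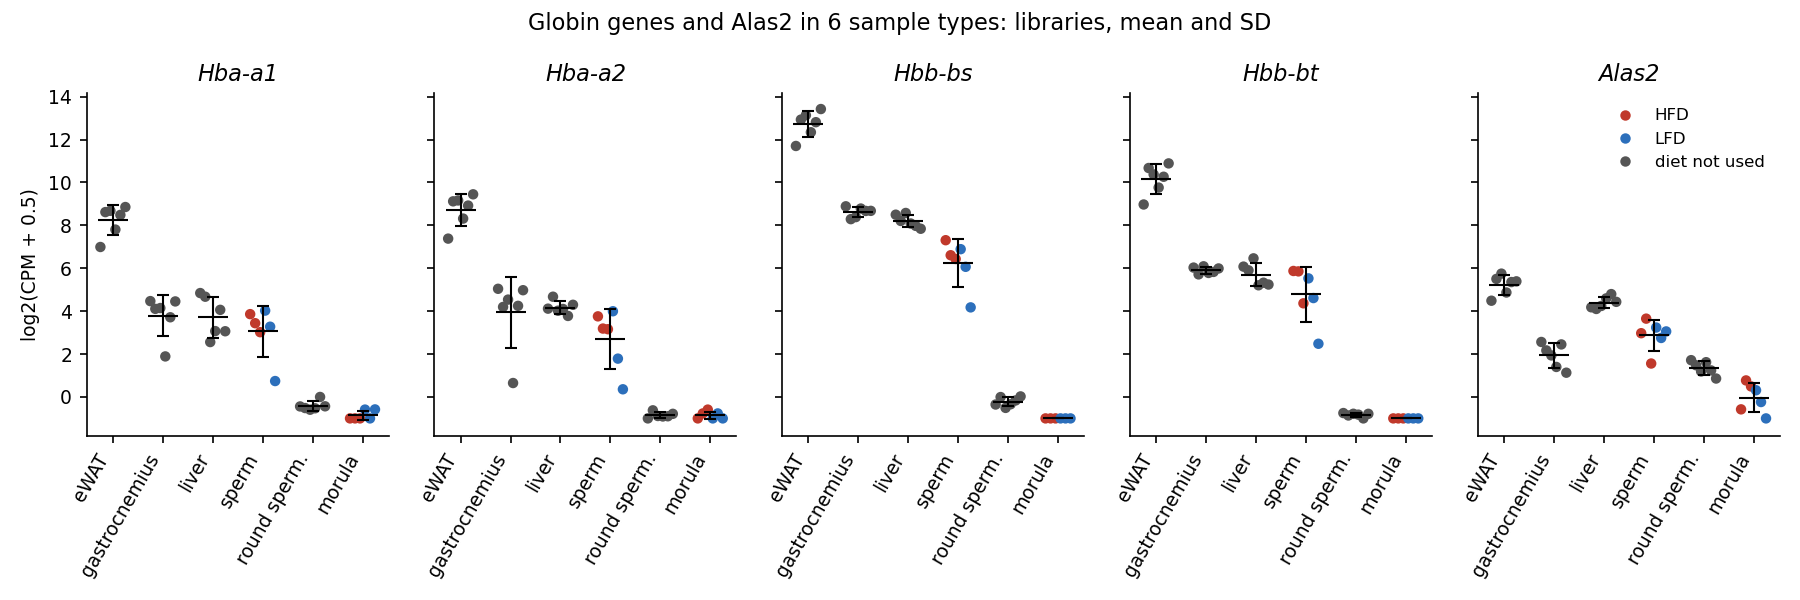
log2(CPM + 0.5) of each of the 5 genes in the 36 libraries, 1 panel per gene, with the mean and SD of the 6 libraries of each sample type. The globin genes are highest in eWAT, lower in gastrocnemius and liver and lower again in sperm, whereas Alas2 has liver next to eWAT and gastrocnemius low.

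Each gene was compared between all 15 pairs of sample types by an exact two-sided permutation test of log2(CPM + 0.5), adjusted by Benjamini-Hochberg over 75 tests. With 6 libraries against 6, the smallest p possible is 0.00216, and 66 of 75 tests passed an adjusted p of 0.05. The permutation test was not run on other genes, so the share of all genes that would pass it is not known. Between liver, eWAT and gastrocnemius, the edgeR fit given below called 61.6% to 67.4% of all tested genes. The numbers of passing tests therefore do not set these genes apart from others. The 9 that did not were Hba-a1 between liver and gastrocnemius, liver and sperm, and gastrocnemius and sperm (adjusted p 0.901, 0.373 and 0.334, permutation), Hba-a2 between liver and gastrocnemius, gastrocnemius and sperm, and round spermatids and morulae (0.974, 0.209 and 0.983), Hbb-bt between liver and gastrocnemius and between liver and sperm (0.401 and 0.136), and Alas2 between gastrocnemius and round spermatids (0.0678). For Hbb-bs all 15 pairs passed on this scale: its order was eWAT, gastrocnemius, liver, sperm, round spermatids and morulae, and its closest pair, gastrocnemius and liver, had an adjusted p of 0.0325 (exact permutation). With mitochondrially encoded counts left out of the totals, 61 of the 75 tests passed, 60 of them shared with the 66. The 6 lost were all against sperm: Hbb-bs with liver and with gastrocnemius (adjusted exact permutation p 0.647 and 0.0850), Hba-a2 with liver (0.914), Hbb-bt with gastrocnemius (0.994) and Alas2 with liver and with eWAT (0.694 and 0.0733). Alas2 between gastrocnemius and round spermatids was gained (0.00854). The place of sperm in these orders thus depended on the totals.

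The 3 tissues were also compared in 1 edgeR quasi-likelihood fit over the 10851 genes that passed the filter, with trimmed-mean (TMM) scaling and Benjamini-Hochberg adjustment. Between eWAT and gastrocnemius all 5 genes were higher in eWAT, where 41.1% of all tested genes were called higher and 67.4% were called in either direction. The log2 fold change was 3.46 for Hba-a1 (SE 0.42, adjusted p 1.74e-07), 3.57 for Hba-a2 (SE 0.39, 3.62e-08), 3.26 for Hbb-bs (SE 0.28, 8.04e-10) and 3.44 for Hbb-bt (SE 0.30, 9.9e-10). Alas2 was higher by 2.46 (SE 0.29, 1.12e-07). The median over all tested genes was 0.35.

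Between liver and eWAT the 4 globin genes were lower in liver, against 32.6% of all tested genes called lower and 61.6% called in either direction. Their log2 fold changes were -3.51 (Hba-a1, SE 0.40), -3.80 (Hba-a2, SE 0.38), -3.70 (Hbb-bs, SE 0.29) and -3.60 (Hbb-bt, SE 0.30), with adjusted p-values between 9.85e-11 and 6.86e-08. Alas2 had a log2 fold change of 0.04 (SE 0.22, adjusted p 0.886). The Alas2 value depended on scaling: with library totals in place of TMM it was -0.87 (adjusted p 0.00107), while the median of all tested genes moved from -0.07 to -0.996, with 77.4% of genes called, 64.5% lower in liver and 13% higher. The globin genes lay between -4.71 and -4.43 on that scale, so they were lower in liver under both scalings.

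Between liver and gastrocnemius the 4 globin genes were not called, although 66.4% of all tested genes were. Their log2 fold changes were -0.06 (Hba-a1, SE 0.43, adjusted p 0.922), -0.22 (Hba-a2, SE 0.40, 0.636), -0.43 (Hbb-bs, SE 0.26, 0.147) and -0.16 (Hbb-bt, SE 0.29, 0.642). For Hbb-bs this differs from the exact test above, which passed its threshold. The sign for Hba-a1 turned when any of 4 single libraries was left out, and that for Hba-a2 turned under limma-voom (0.04). Alas2 was 2.50 higher in liver on the log2 scale (SE 0.29, adjusted p 8.53e-08), the only one of the 5 genes called, where 34.9% of all genes were called higher.

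The make-up of the globin counts differed little between the 3 tissues. Hbb-bt gave 15.4% of beta counts in liver (exact 95% interval 14.4% to 16.5%), 14.5% in eWAT (14.3% to 14.7%) and 13.6% in gastrocnemius (12.6% to 14.6%), each pooled over 6 libraries. In sperm it gave 28.3% (26.5% to 30.1%), from 19.0% in h4 (15.2% to 23.2%) to 37.2% in h3 (33.4% to 41.1%), and the lowest sperm library lay above the highest library of each tissue (18.7% in liver, 17.3% in eWAT, 16.9% in gastrocnemius), although the interval of h4 reached into theirs. Divided by exon length, the share of Hbb-bt among beta RNA was 16.6%, 15.6% and 14.6% in liver, eWAT and gastrocnemius, and 30.1% in sperm. Kit, read length and the part of the transcript sequenced differ between sperm and the tissues, and their part in the shift was not tested. Round spermatids, with 9 Hbb-bt among 63 beta counts, gave 14.3% (6.75% to 25.4%). The pooled intervals leave out the spread between libraries, which in eWAT ran from 12.9% to 17.3%.

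Alpha genes gave 8.49% of globin counts in liver, 8.46% in eWAT, 7.66% in gastrocnemius and 12.4% in sperm. Single libraries departed from this: library 7 of gastrocnemius had 4 alpha counts of 467 (0.857%, exact 95% interval 0.234% to 2.18%) while the other 5 ran from 6.29% to 10%, and library 15 of liver had 4.31% (3.18% to 5.69%) while its other 5 ran from 7.40% to 12.4%. In round spermatids 47 of 110 globin counts were alpha (42.7%, 33.3% to 52.5%), above the interval of every tissue and of sperm. The handling of reads shared between 2 copies is not known. Kit, read length and read pairing were not the same across sample types, nor was the part of the transcript sequenced. The part of any of these in the alpha shares was not tested.

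Relative to globin RNA, Alas2 was scarce in eWAT and gastrocnemius. There were 2.95 to 5.32 Alas2 counts per 1000 globin counts in the eWAT libraries and 3.23 to 10.03 in gastrocnemius. Liver had 37.3 to 85.1, with no overlap with either, and sperm 20.04 to 317, the highest being l4 with 20 Alas2 and 63 globin counts. In round spermatids Alas2 outnumbered the globin genes, with 1435 to 4538 counts per 1000.

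**Figure D3:**
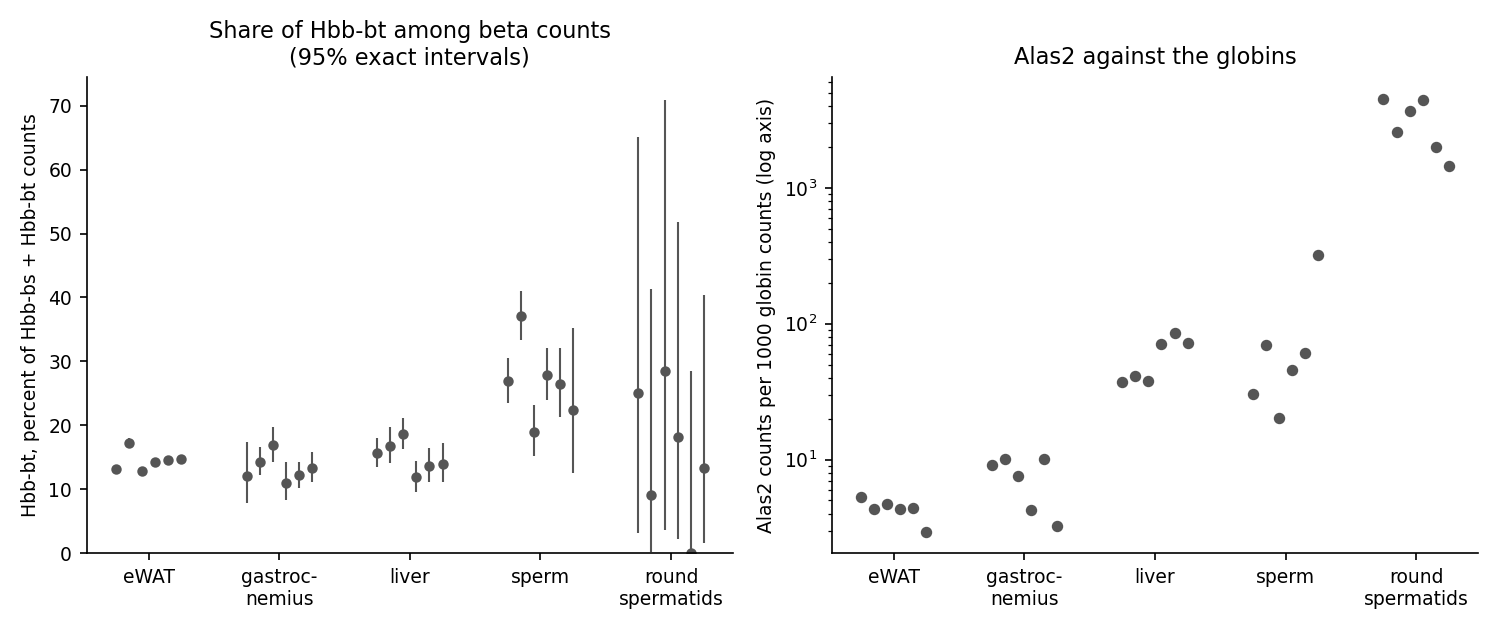
Make-up of the globin counts with 1 point per library: the share of Hbb-bt among beta counts in percent, with exact 95% intervals, and Alas2 counts per 1000 globin counts on a log axis. The 6 sperm libraries lie between 19.0% and 37.2% Hbb-bt, above the libraries of the 3 tissues, and the liver libraries lie above eWAT and gastrocnemius in Alas2 per globin count.

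Across the 6 eWAT libraries the alpha genes followed Hbb-bs closely, while for Hbb-bt only r, and for Alas2 neither r nor rho, passed the adjustment. Correlations of log2(CPM + 0.5) with Hbb-bs were r = 0.983 for Hba-a1 (rho = 1; exact permutation p 0.00139 and 0.00278, adjusted over 21 relations 0.0146 and 0.0292) and r = 0.989 for Hba-a2, with the same p-values. Hbb-bt had r = 0.970 (rho = 0.943, exact permutation p 0.00556 and 0.0167, adjusted 0.0365 and 0.117). Alas2 had r = 0.906 (rho = 0.829, exact permutation p 0.0125 and 0.0583, adjusted 0.0525 and 0.245). Without the 2 libraries farthest from the median, 17 and 27, r was 0.972, 0.976, 0.837 and 0.999 in that order. All 5 genes were lowest in library 17, and since the genes of a library are divided by the same total, they share its error. That library also had the lowest summed fat markers (16480 CPM, against 19307 to 30321 in the other 5) and 68.9 CPM of summed spermatid markers, against 0.247 to 2.29 CPM in the others. Library 27, highest in Hbb-bs, had the highest fat markers. The part of the tissue make-up in these relations was not tested.

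Values in the other 2 tissues were mostly lower, and the difference between tissues was not tested. In liver, Hbb-bt had r = 0.932 with Hbb-bs (rho = 0.829, exact permutation p 0.00694 and 0.0583, adjusted 0.0365 and 0.245) and r = 0.735 without libraries 13 and 15. Hba-a1 and Hba-a2 had r = 0.10 and -0.04 there, and Alas2 had -0.64 (rho = -0.60, adjusted exact permutation p 0.342 and 0.461). In gastrocnemius r ran from -0.25 for Hba-a1 through -0.21 and -0.02 to 0.19 for Hbb-bt, all with adjusted p above 0.8 (exact permutation). The globin share of gastrocnemius spanned 1.48 times from lowest to highest library, that of liver 1.67 times and that of eWAT 3.40 times, and each liver or gastrocnemius library held 3 to 72 Hba-a1 counts against 445 to 1875 in eWAT.

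**Figure D4:**
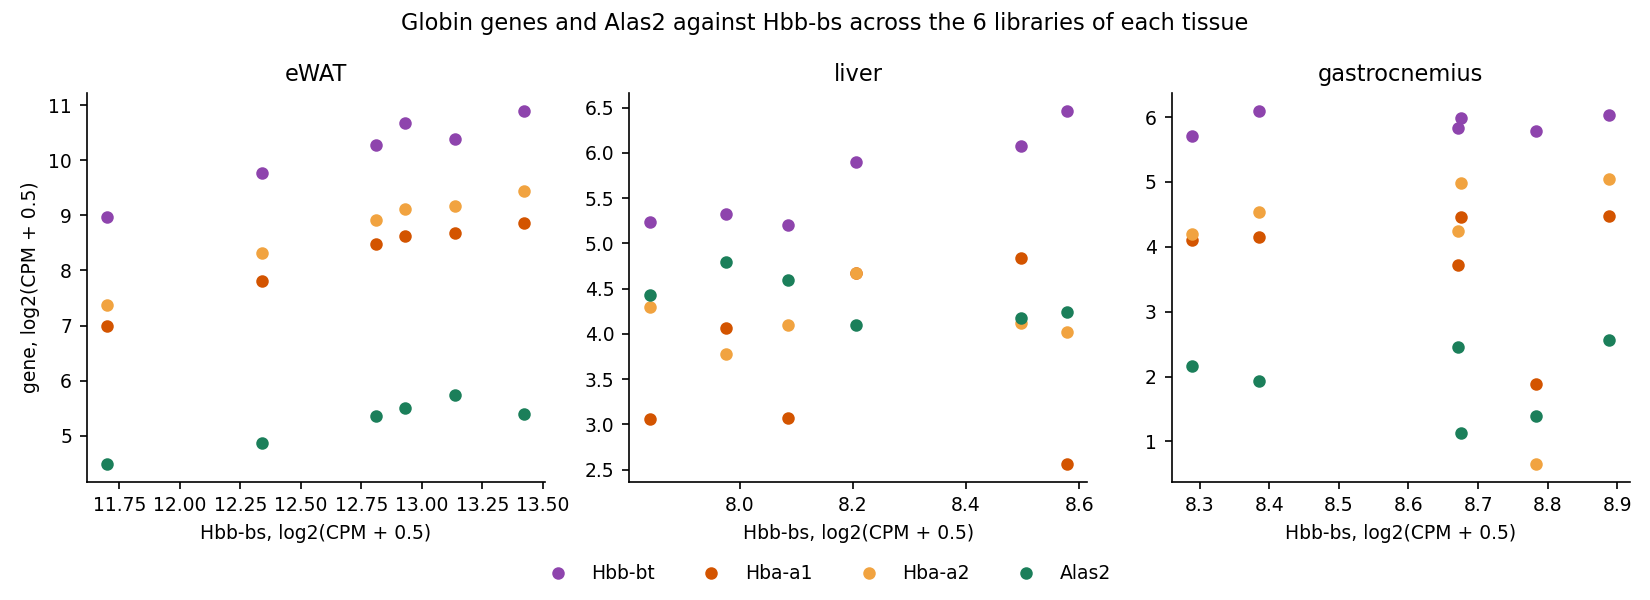
log2(CPM + 0.5) of Hbb-bt, Hba-a1, Hba-a2 and Alas2 against that of Hbb-bs, with 1 panel per tissue and 1 point per library and gene. The r with Hbb-bs is 0.906 to 0.989 in eWAT and -0.25 to 0.19 in gastrocnemius.

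Markers of other blood and vessel cells were counted beside the globin genes. Of 18 leukocyte genes, 8 were tested and all 8 were higher in eWAT than in gastrocnemius (median log2 fold change 2.98, against 0.35 over all genes) and all 8 were lower in liver than in eWAT. Of all tested genes, 41.1% were higher in the first of these comparisons and 32.6% were lower in the second, and these shares also stand behind the platelet and endothelial counts. The leukocyte genes had a summed level of 792 to 1337 CPM in eWAT, 44.1 to 130 in liver and 45.5 to 74.9 in gastrocnemius, with Ngp at 0 in all eWAT libraries. Both tested platelet genes of 10, Pf4 and Clec1b, were higher in eWAT than in gastrocnemius, at summed levels of 140 to 274 CPM and 6.91 to 26.7 CPM, with Gp1ba, Tubb1 and Treml1 at 0 in eWAT. Between liver and eWAT the 2 parted. Clec1b was higher in liver (means 10.4 and 1.58 CPM), next to 28.9% of all tested genes, and Pf4 was lower (1.52 and 208 CPM). Of 8 endothelial genes, 7 were higher in eWAT than in gastrocnemius (683 to 858 CPM against 82.6 to 165 CPM) and 7 were lower in liver (114 to 213 CPM). Across the 6 eWAT libraries, however, Hbb-bs and the leukocyte sum had r = -0.699 (rho = -0.771, adjusted exact permutation p 0.338 and 0.360), and the platelet sum had r = -0.567 (rho = -0.714, adjusted 0.390 and 0.408). The part of these cells in the globin levels was not tested.

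Genes of the red cell itself were less uniform. Of 27 symbols, 25 had an identifier and 9 passed the filter, and between eWAT and gastrocnemius 5 were higher and 4 lower, next to 41.1% and 26.3% of all tested genes. Among those higher were Slc25a37, which carries iron into mitochondria (log2 fold change 1.59), the poly(A) polymerase gene Tent5c (2.61), the exonuclease gene Isg20 (3.93) and Acp5 (7.18), of which Acp5 is also a macrophage and osteoclast gene. The 4 lower ones were Ank1 (-7.49) and Sptb (-5.34), membrane skeleton genes that skeletal muscle also expresses, Tmcc2 (-2.99) and the bisphosphoglycerate mutase gene Bpgm (-1.45). Between liver and eWAT, 8 of 9 were lower in liver (32.6% of all genes) and Tent5c was not called (-0.54). The list median was -1.82, with all genes at -0.07.

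Haem synthesis genes outside Alas2 were mostly highest in liver. Of 8 genes, 7 were tested, and 6 were higher in liver than in eWAT, where 28.9% of all tested genes were higher. They were led by Cpox (coproporphyrinogen oxidase, log2 fold change 4.65) and Alas1 (the ubiquitous synthase, 2.94), whose mean was 396 CPM in liver, 97.0 in eWAT and 36.2 in gastrocnemius. Between liver and gastrocnemius 4 of 7 were higher in liver (34.9% of all genes) and 0 lower, and between eWAT and gastrocnemius 1 was higher and 3 were lower (41.1% and 26.3% of all genes). Genes that clear free haemoglobin and haem or handle iron differed between tissues too. Between eWAT and gastrocnemius, Hp (haptoglobin, 8.42), Trf (transferrin, 6.40), Hpx (haemopexin, 5.80), Blvrb (biliverdin reductase, 2.72), Hmox1 (haem oxygenase, 2.68) and the haemoglobin receptor gene Cd163 (2.39) were higher in eWAT, and the iron exporter gene Slc40a1 (-1.29) and the transferrin receptor gene Tfrc (-1.12) were lower. Of the 8 genes, 6 were thus higher and 2 lower. Hp, Trf and Hpx are also secreted by liver, and all 6 liver markers were higher in eWAT than in gastrocnemius (median log2 fold change 5.63). Alb had a mean of 30002 CPM in liver and 132 CPM in eWAT, and Hpx 2671 and 14.4 CPM. Hp had 4049 CPM in liver and 3004 CPM in eWAT, and Trf 5330 and 2071 CPM. The part of liver RNA in the eWAT values was not tested.

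The embryonic and minor globin genes were near 0 throughout. None of Hba-x, Hbb-y, Hbb-bh1, Hbb-bh2, Hbq1a and Hbq1b passed the filter in any comparison. In eWAT they had 2 counts (Hba-x), 1 (Hbb-y) and 6 (Hbq1b) over all 6 libraries, next to 161605 adult globin counts. Round spermatids had 7 Hbb-y counts and 1 of Hbq1a, HFD sperm had 5 Hba-x counts, gastrocnemius 1 Hba-x count and LFD morulae 4 of Hbq1b. Hbb-bh1 and Hbb-bh2 had none in any library.

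None of the 10 genes most like the summed globin level across libraries was on a red-cell list. Of the 25 red-cell genes, however, only Slc25a37 and Bpgm could be ranked, so the absence says nothing about the others. A ranked gene needed at least 10 counts in at least 3 libraries of each tissue. By the mean of Pearson's r within liver, eWAT and gastrocnemius, over 6 libraries each and among 5944 genes, the 10 closest were Enpp2 (mean r 0.750), Fam214a (0.749), Nol11 (0.740), Mmrn2 (0.738), Fam13a (0.735), Plcb4 (0.732), Sult1a1 (0.728), Utrn (0.715), Ppfibp1 (0.715) and Cd36 (0.709). Within eWAT alone, Slc25a37 had r = 0.911 and Bpgm 0.856, but in gastrocnemius these were -0.860 and -0.623, and their places by mean r were 3030 and 2296 of 5944. These values rank genes over few libraries and carry no test.

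In sperm the comparison of HFD with LFD males turned on the scale. On the TMM scale, Hbb-bs was 305, 136 and 194.2 CPM in h1, h3 and h4 against 77.8, 42.7 and 6.81 CPM in l1, l2 and l4. Without TMM, the same gene was 158, 97.0 and 85.9 against 118, 66.5 and 17.6 CPM. The diets thus did not overlap on the first scale and overlapped on the second.

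In the edgeR quasi-likelihood fit over 8643 genes with TMM, none of the 5 genes was called, nor was any other gene (0%; smallest adjusted p 0.232, with 1122 genes at an unadjusted p under 0.05). Log2 fold changes of HFD over LFD were 2.32 for Hbb-bs (SE 0.70, adjusted p 0.234), 2.33 for Hbb-bt (SE 0.74, 0.245), 1.82 for Hba-a1 (SE 0.85, 0.385), 2.19 for Hba-a2 (SE 0.94, 0.339) and 1.51 for Alas2 (SE 0.75, 0.421). All 5 values were above 0, with a median of -0.07 over all genes. So were those of all 5 tested spermatid markers, of which 0 were called (median 1.22), from 1.20 for Prm2 (adjusted p 0.454) to 2.00 for Odf1 (0.272), and that of Tent5c (1.87, adjusted p 0.272). DESeq2 called Hbb-bs (2.43, adjusted p 0.0240) and Hbb-bt (2.42, 0.0387), where it called 3.41% of all genes, 3.15% as higher and 0.266% as lower.

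Scaled by library totals, the values were 0.75 for Hbb-bs, 0.86 for Hbb-bt, 0.28 for Hba-a1, 0.64 for Hba-a2 and -0.07 for Alas2, with adjusted p-values from 0.331 to 0.954 and a median of -1.82 over all genes. With mitochondrially encoded counts left out of the totals, they were 1.78, 1.85, 1.27, 1.64 and 1.02 (adjusted p 0.267 to 0.501, edgeR), and the median was -0.66. The HFD libraries had 78.1% to 84.3% of counts from the mitochondrial genome and TMM factors of 0.442 to 0.716. The LFD libraries had 43.5% to 64.7% and factors of 1.52 to 2.58.

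Library l4 bore on each of these values. Without it, the TMM values were 1.82 (Hbb-bs), 1.81 (Hbb-bt), 1.27 (Hba-a1), 1.64 (Hba-a2) and 1.32 (Alas2), with adjusted p-values of 0.706 to 0.862 in edgeR. By library totals without l4 they were 0.30, 0.38, -0.23, 0.12 and -0.05. Library l4 had the lowest mitochondrial share of the 6, and the highest Cd52 level (3865 CPM).

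Leukocyte markers gave a sum ruled by 1 gene. The 18 leukocyte genes summed to 270 to 832 CPM in the HFD libraries and 1611 to 4071 CPM in the LFD libraries, without overlap in CPM. Most of that was Cd52, a small surface protein of lymphocytes that the epididymal epithelium also makes, with a mean of 493.3 CPM in HFD and 2493 CPM in LFD libraries. S100a8, of neutrophils, did not overlap either, at 1.09 to 18.4 CPM in HFD and 40.6 to 88.7 CPM in LFD libraries. In CPM of library totals, 57.7% of all tested genes had no overlap between diets, and only 0.555% of all were higher in HFD. Lower values in HFD without overlap were thus common on this scale. Ptprc, the pan-leukocyte gene, had means of 8.40 and 10.95 CPM, and Lyz2, of myeloid cells, 14.1 and 18.7 CPM, while Cd8a, Ngp, Camp and Retnlg were at 0 in all 6 libraries. On the TMM scale 7 of the 18 genes were tested and 0 were called, where 0% of all tested genes were called. Log2 fold changes were -0.60 for Cd52 (adjusted p 0.682, edgeR), -1.03 for S100a8 (0.592), 1.08 for Ptprc and 1.22 for Lyz2. The part of such cells in the globin values was not tested.

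Of the 5 genes, 4 had no overlap between diets on the TMM scale, all globin genes and all higher in HFD, next to 20.4% of all tested genes without overlap and 8.12% higher in HFD. With mitochondrially encoded counts left out it was 1 of 5, Hbb-bs (29.6% of all genes, 3.41% higher), and in CPM of library totals 0 of 5 (57.7%, 0.555% higher). An exact permutation test of 3 against 3 libraries cannot give a p below 0.1, which the 4 globin genes reached on the TMM scale (Alas2 0.2). In CPM the same test gave exact p-values from 0.3 to 0.8.

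**Figure D5:**
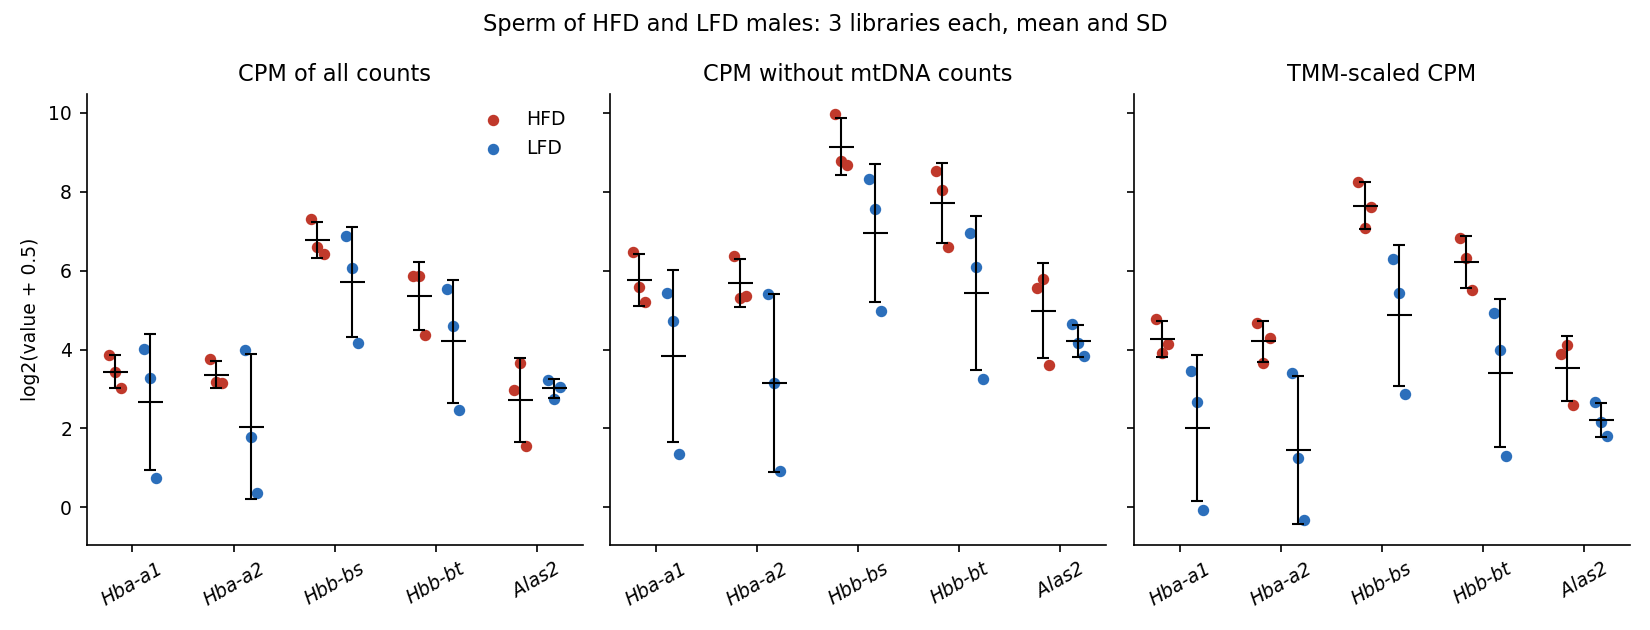
log2(value + 0.5) of the 5 genes in the 3 HFD and 3 LFD sperm libraries, with means and SDs, in CPM of library totals, in CPM without mitochondrially encoded counts and in TMM-scaled CPM. For Hbb-bs the diets overlap in CPM (85.9 to 158 against 17.6 to 118) and are apart on the TMM scale (136 to 305 against 6.81 to 77.8).

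The red-cell lists gave no call in sperm either, and could give none, since this fit called 0% of all tested genes. Of the haem synthesis genes 8 were tested (median log2 fold change -0.46), of the red-cell genes 5 (0.80) and of the haemoglobin clearance and iron genes 3 (0.96), with 0 called in each direction. The 25 red-cell genes summed to 534 to 1140 CPM in sperm, most of it Tent5c, whose mean was 582 CPM in HFD and 519 CPM in LFD libraries.

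In morulae none of the 5 genes passed the filter, and the edgeR fit called 0% of 13447 genes by diet (858 at an unadjusted p under 0.05). Alas2 had 2, 14 and 11 counts in the 3 HFD libraries and 9, 4 and 0 in the LFD libraries, which overlap (exact permutation p 0.4, two-sided, on log2(CPM + 0.5)). Each alpha gene had at most 2 counts in a library, and Hbb-bs and Hbb-bt had none in 71005346 counts. A diet difference in globin RNA was therefore not detectable in morulae at this depth.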

How the data were processed

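RNA-seq libraries of 36 samples were analysed from 6 tables of read counts per gene. The authors trimmed reads with BBDuk, aligned them with STAR to GRCm38, counted them with featureCounts, and deposited the raw counts, with replicates not pooled. Tool versions are not given in the sources used here, nor are the strand setting and the handling of reads that match several genes. Columns of liver, eWAT, gastrocnemius and round spermatids carry no sample title or condition, so each was assigned to its sample type; 0 columns of sample values were left out.

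CPM values are the deposited counts scaled to a common library total. Sperm, morulae and the 3 tissues together were each fitted with the quasi-likelihood test of edgeR 4.0.16 (R 4.3.3), with a minimum count of 10 in the expression filter, TMM scaling and a Benjamini-Hochberg adjusted p under 0.05, two-sided. Single genes were compared by exact permutation of log2(CPM + 0.5) in numpy 2.4.6. Intervals of shares are exact 95% binomial (Clopper-Pearson, scipy 1.17.1), those of pooled CPM values are exact 95% Poisson, and floors are 3 counts. The scripts were tested on simulated data. Alternatives were DESeq2 1.42.0, limma-voom 3.58.1, other scalings, no filter and leaving out each library.

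The genes and lists were chosen with earlier results of these data known. Genes named from a list are those called in a comparison or those of highest CPM, and the 10 most alike were taken by mean r over the 3 tissues. No identifier was found for 2 list symbols, Ahsp and Fam46c, of which the latter is an older name of Tent5c. Replicate libraries differed beyond sampling noise, so none was merged in the fits and permutation tests. Shares called pooled add up the counts of the 6 libraries of a sample type, and their intervals leave out the spread between libraries. The description of 3 morula samples names the other diet than title and treatment, and the title was followed.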

Additional observations from a re-analysis of the deposited data

Results flagged for a closer look

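Groups of 6 libraries were searched for a lowest or highest library far from the others (Dixon's test at 95%). Of 40 groups, 3 had one, where chance gives about 1 in 20. In gastrocnemius library 7, Hba-a1 made up 75% of alpha counts, against 40.0% to 48.4% in the other 5, but that library had 4 alpha counts in all. In round spermatid library 67, Hba-a1 stood at 0.4995 CPM, against 0.162 to 0.239 CPM in the other 5, which is 14 counts against 4 to 6. In the same library alpha genes made up 57.7% of globin counts, against 34.8% to 41.7%.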

How the results depend on the processing

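No paired analysis was possible because the numbers in the count columns are not those of the sample titles. Of 605 values under alternatives, 155 were numbers of called genes or of passing tests, or globin shares. Of these, 146 stayed within a set ratio of the main number or within the spread of the main share. The rest were log2 fold changes of the 5 genes. Their sign turned in 7 cases with 1 library left out and in 5 under other settings.

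Genes called by diet moved from 0 to 3266 with library totals, 41 with no filter and 295 with DESeq2 in sperm, and from 0 to 63 with no filter and 18 with DESeq2 in morulae. The 3266 were 3265 lower and 1 higher in HFD, and there were 0 with library totals without l4 (2752 at an unadjusted p under 0.05, edgeR) and 0 with totals without mitochondrially encoded counts (1420). Leaving out 1 library gave 0 in sperm and 0 to 2 in morulae, with 2 without MH5. Leaving out 1 library gave 7076 to 7418 called genes between liver and gastrocnemius, 6558 to 6996 between liver and eWAT and 7142 to 7603 between eWAT and gastrocnemius. With library totals, 1406 genes were higher and 6995 lower in liver than in eWAT, against 3138 and 3542 with TMM and 3548 and 3101 without mitochondrially encoded genes. Between eWAT and gastrocnemius, 7357 were higher and 1227 lower, against 4465 and 2853.

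Without mitochondrially encoded counts in the totals, the globin share was 0.0511% in liver, 0.0795% in gastrocnemius and 0.0631% in sperm. Leaving out 1 library, it ran from 0.0365% to 0.0404% in liver, 0.833% to 1.03% in eWAT, 0.0472% to 0.0510% in gastrocnemius and 0.0124% to 0.0167% in sperm. In sperm, log2 fold changes turned sign for Alas2 with library totals (-0.069) and for Hba-a1 and Alas2 with library totals without l4 (-0.23 and -0.054), an alternative chosen after seeing the data, as were totals without mitochondrially encoded counts. Hbb-bs (2.43) and Hbb-bt (2.42) were called by DESeq2. Without 1 library the sperm values ran from 1.27 to 2.70 for Hba-a1, 1.64 to 4.17 for Hba-a2, 1.82 to 3.17 for Hbb-bs, 1.81 to 3.27 for Hbb-bt and 1.18 to 1.86 for Alas2.

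Between liver and gastrocnemius, Hba-a2 turned to 0.040 with limma-voom, and Hba-a1 ran from -0.35 to 0.12 with 1 library left out (0.12, 0.09 and 0.06 without liver libraries 15, 16 and 24, 0.08 without gastrocnemius library 9). Between liver and eWAT, Alas2 turned to -0.87 with library totals and ran from -0.12 to 0.13 with 1 library left out (-0.12, -0.03 and -0.05 without eWAT libraries 17 and 25 and liver library 23). The cause was not tested. Every globin difference between eWAT and the other 2 tissues kept its call and direction under all 25 alternatives. Globin counts per library were few in round spermatids and morulae, which limits what can be compared there, although these libraries held the most counts.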
